A study of Mus musculus with 14 samples.

Results

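Embryoid bodies from a Foxk1 knockout (KO) stem cell line were compared with those of its control line on day 5 of mesodermal differentiation, across all genes measured. The comparison holds 4 of the 14 RNA sequencing libraries of the series. The genotype Foxk1KO has 2 libraries, and the genotype iHAFoxk1, the iHA-Foxk1 line that the labels name as control, has 2. The letters ND in the control titles are not interpreted here. Embryoid bodies are aggregates that embryonic stem cells form in suspension, and both lines are mouse. Stem cells of either line were kept on irradiated mouse embryonic fibroblasts with serum and LIF, freed of those feeders by a short plating, and differentiated by shaking in serum medium with transferrin, monothioglycerol and ascorbic acid. No treatment is given for either group. Each genotype is a single line, so loss of Foxk1 and other differences between the lines cannot be told apart. The labels do not say that libraries of a group are separate cultures, so p-values measure the spread between these samples only, which may be technical.

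Foxk1 encodes a forkhead transcription factor that binds DNA together with corepressor complexes, and with its relative Foxk2 it is known for restraining autophagy genes and for promoting glycolysis. In embryoid bodies kept in such medium, epiblast-like cells pass through a primitive streak state into mesoderm, and by the middle of the first week the cultures hold precursors of blood, vessels, heart and mesenchyme beside epithelial and endodermal cells. In bulk RNA, fewer cells of a type and less RNA per cell cannot be told apart.

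Levels are given in CPM, the estimated count scaled to a common library total, for KO library 1 and 2 and control library 1 and 2 in that order within each group. Fold changes are log2 of KO over control ± SE from a model of all 8 day 3 and day 5 libraries, and the adjusted p comes from the quasi-likelihood test of edgeR, adjusted over all genes tested. A gene is said to have risen or fallen where its adjusted p was below 0.05. The day 5 libraries held 10574194 to 11320617 counts, so that 3 counts in 1 library stood for 0.262 to 0.298 CPM. The KO libraries differed from each other more than the control libraries did. The SD of their log2 ratio over genes was 0.566, against 0.416 in control libraries and 0.989 between the group means. A chi-square of replicate counts over its degrees of freedom, larger where replicates differ more, was 19 in day 5 KO and 3.75 in day 5 control libraries. At day 3 it was 1.86 in KO and 1.85 in control libraries. The model takes each gene's spread from all groups together, so SEs and adjusted p may understate the spread of day 5 KO libraries. Fitted alone, the day 5 libraries gave 4354 genes at adjusted p below 0.05, of 13561 tested. A first principal component with 81.2% of the variance separated KO from control, and a second with 11.9% separated the KO libraries.

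Foxk1 itself read 38.2 and 33.6 CPM in KO libraries, against 134 and 133 CPM in control libraries, a log2 fold change of -1.90 ± 0.09 (adjusted p = 4.91e-07). Its level in KO was thus low but not at 0, and the sources used here do not give the deleted part of the gene. Foxk2 read 113 and 104 CPM in KO libraries, against 135 and 135 CPM in control libraries (-0.32 ± 0.06, adjusted p = 0.00285), lower in both KO libraries by a small margin.

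In all, 6281 of 14430 genes tested were called, which is 43.5% and the background for every count that follows. Of these, 3155 rose (21.9%) and 3126 fell (21.7%), and 1331 rose (9.22%) and 1077 fell (7.46%) by at least 2-fold. The median log2 fold change of all genes tested was 0.01. With that background, a list of which 2 in 5 members are called has a share near the background, and lists are read by how one-sided they are and by their median. The lists were chosen with earlier results of these data known and carry no test of their own. A list's count is of members that passed the filter on low counts, and its median is that of their log2 fold changes. In the forkhead family, Foxk1 and Foxk2 aside, 9 of 28 rose, 4 fell and 15 were not called (16 rises without KO library 1, 3 rises without control library 1, 5 rises on day 5 libraries alone and 2 falls without control library 1 or by DESeq2 or on day 5 libraries alone). Foxo3, which activates autophagy and stress genes, rose (0.75 ± 0.06, adjusted p = 1.04e-05), and so did Foxq1, a forkhead gene of epithelia (2.22 ± 0.23, adjusted p = 8.26e-05), while Foxo4 fell (-0.83 ± 0.11, adjusted p = 0.00123).

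**Figure D1:**
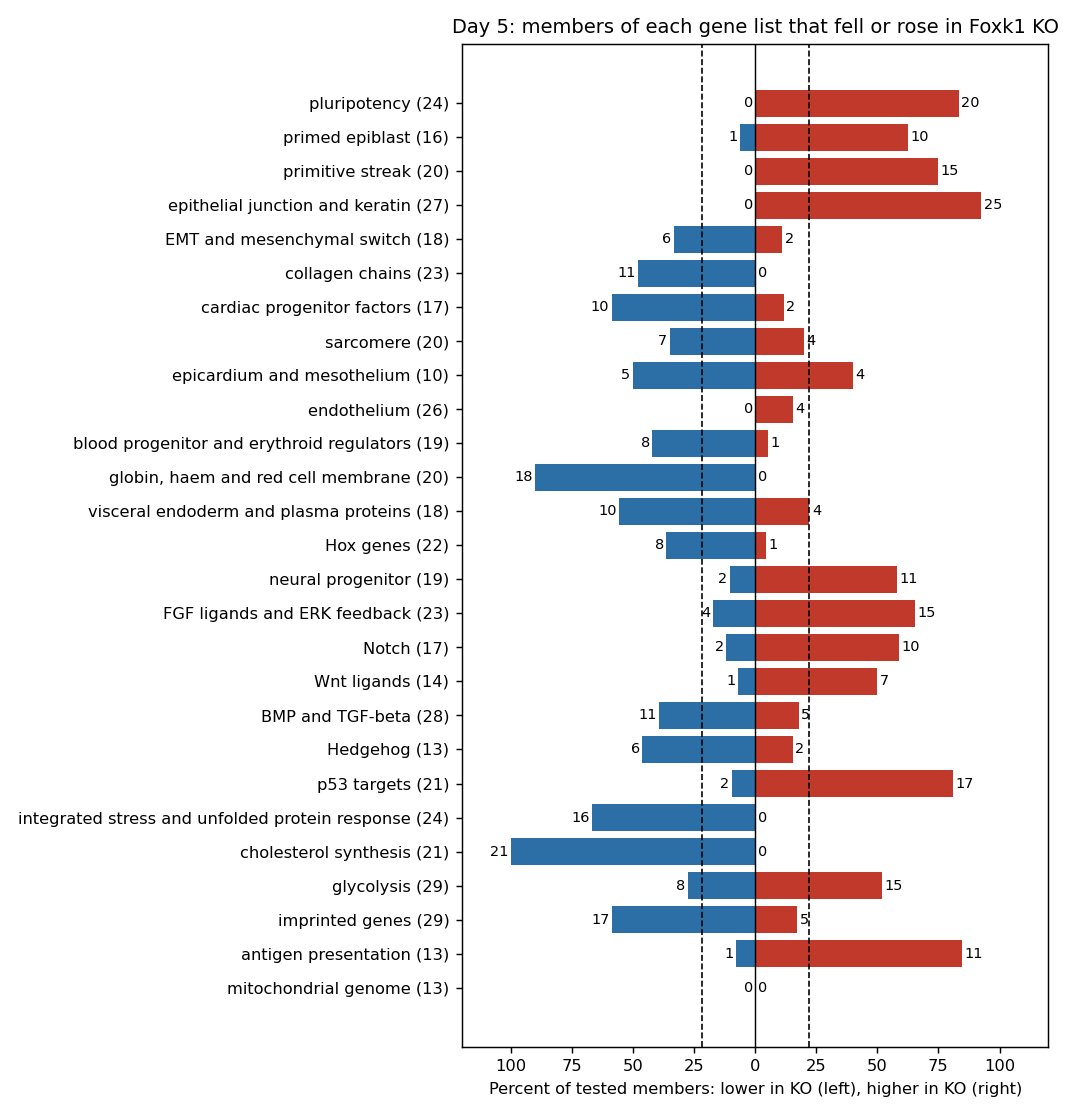
For each gene list (number of members tested in parentheses), the bar to the right is the percent of members that rose in KO embryoid bodies and the bar to the left the percent that fell, with counts at the ends; dashed lines are the background of 21.9% and 21.7%. Pluripotency, streak and epithelial lists have nearly all their calls on the right, and cholesterol synthesis, globin and stress response lists all of theirs on the left.

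Before the gene groups, some large differences between KO and control libraries in sex-linked genes are given. Here too, loss of Foxk1 and other differences between the lines cannot be told apart. All 5 tested Y-linked genes rose, among them the helicase gene Ddx3y with 44.9 and 44.9 CPM in KO libraries, against 3.37 and 4.47 CPM in control libraries. Hprt, the X-linked purine salvage enzyme gene, read 65.7 and 56.8 CPM in KO libraries, against 2.48 and 4.87 CPM in control libraries (4.06 ± 0.22, adjusted p = 6.94e-06). Mid1, an X-linked ubiquitin ligase gene, read 305 and 283 CPM in KO libraries, against 2026 and 1971 CPM in control libraries (-2.77 ± 0.08, adjusted p = 1.4e-07). Both KO libraries lay on the same side of both control libraries in each case. The part of these differences in the gene groups below was not tested.

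Several of the highly expressed genes that rose have near-identical copies elsewhere in the genome, mostly processed pseudogenes, which are reverse-transcribed messenger RNAs without introns. Processed pseudogenes together took 0.865% and 0.836% of the counts in KO libraries, against 1.43% and 1.45% in control libraries. Of 399 tested, 39 rose and 91 fell. The falls were near the background of 21.7%, and the rises below that of 21.9%. Copies were added to their parent genes, a step chosen after the results were seen. Of the 20 parent genes that rose at least 2-fold, 9 lay within 1.5-fold between the groups once copies were added. Rpl3, a ribosomal protein gene, averaged 1583 CPM in KO and 242.3 CPM in control libraries by itself, and 1686 CPM in KO and 1899 CPM in control libraries with its copies. Ahcy, the enzyme that clears S-adenosylhomocysteine, averaged 346 CPM in KO and 9.924 CPM in control libraries, and 397.1 CPM in KO and 353.7 CPM in control libraries with its copy. Hmga1, a chromatin architecture gene, averaged 930.3 CPM in KO and 236.4 CPM in control libraries, and 970.3 CPM in KO and 968.3 CPM in control libraries in sum. Ftl1, the ferritin light chain, averaged 2761 CPM in KO and 12.31 CPM in control libraries. With its copies it averaged 2864 CPM in KO and 1685 CPM in control libraries, a log2 ratio of 0.77 where the parent gene had the largest log2 rise of all genes named by rule. The glycolytic gene Eno1 kept a log2 ratio of 0.62 in sum (2215 CPM in KO, 1442 CPM in control libraries) and Rplp0, of the ribosomal stalk, one of 1.58. Reads were not used here, so how counts were split among copies is uncertain for every gene of this paragraph.

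**Figure D2:**
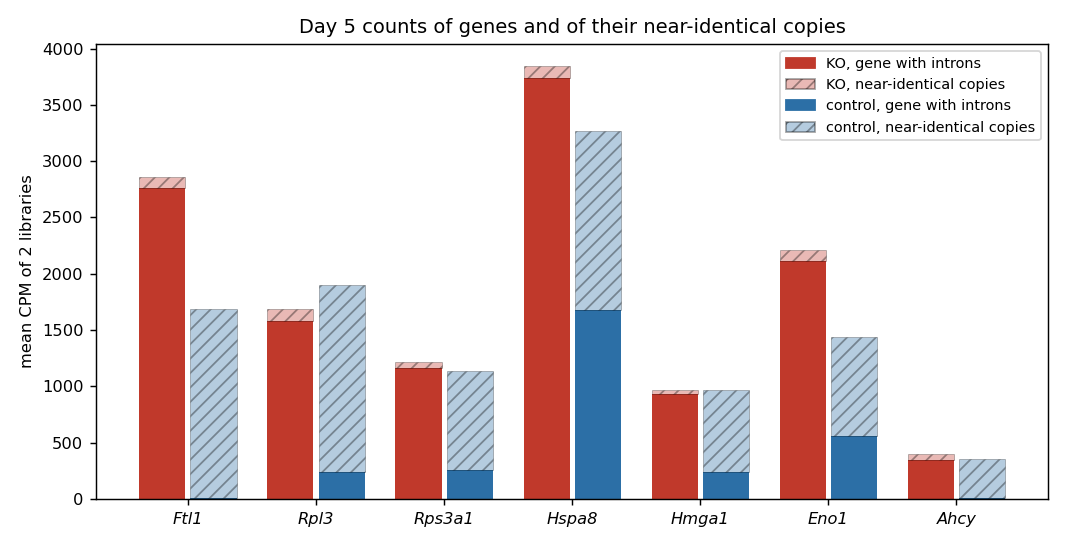
Mean CPM over 2 libraries of 7 parent genes (solid) and of their near-identical copies (hatched, stacked on top), KO at left and control at right of each pair. For Rpl3, Rps3a1, Hmga1 and Ahcy the KO and control bars reach similar heights although the solid part is far smaller in control.

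A pair of biosynthetic and stress programmes with known promoter elements fell, with no member called higher. Transcription factor SREBP-2, the product of Srebf2, binds sterol response elements in the promoters of cholesterol synthesis genes when cell sterols are low. ATF4, the product of Atf4, binds amino acid response elements together with CEBP partners when translation is restrained by amino acid shortage or misfolded protein. The promoter windows below show such elements in genes that fell (RefSeq, GRCm38.p6, taken from 250 bases before to 50 after each start site and cut to 50 bases on either side of the first match and not past the start site). Capitals mark TCACNCCAC, one spelling of a sterol response element, in Hmgcs1, and TGATGNAA or its reverse complement TTNCATCA in the other genes, both strands searched.
Hmgcs1 (chr13:119690164-119690272, plus strand): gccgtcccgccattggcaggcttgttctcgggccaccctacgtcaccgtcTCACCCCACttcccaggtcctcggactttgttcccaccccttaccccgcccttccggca
Chac1 (chr2:119350999-119351106, plus strand): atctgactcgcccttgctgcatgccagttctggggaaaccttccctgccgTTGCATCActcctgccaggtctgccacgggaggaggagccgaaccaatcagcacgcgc
Asns (chr6:7693210-7693282, minus strand): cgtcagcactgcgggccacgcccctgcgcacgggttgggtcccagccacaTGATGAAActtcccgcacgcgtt
Herpud1 (chr8:94386267-94386374, plus strand): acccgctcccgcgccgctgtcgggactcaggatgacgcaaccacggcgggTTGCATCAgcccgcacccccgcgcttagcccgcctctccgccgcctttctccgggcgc
Slc7a11 (chr3:50443622-50443729, minus strand): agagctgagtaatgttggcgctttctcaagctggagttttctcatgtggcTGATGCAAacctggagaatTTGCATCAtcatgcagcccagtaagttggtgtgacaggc

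The match began 137 bases before the start site in Hmgcs1, 193 in Chac1, 23 in Asns, 112 in Herpud1, and 66 and 47 in Slc7a11. TGATGNAA stood in 7 of the 24 stress list promoters (29.2%), against 4.51% of 27025 promoters of all genes. The list holds known ATF4 targets, so a higher share than in all genes follows from its choice and says nothing about the KO. Of the 7 genes, Trib3, Chac1, Asns, Herpud1 and Slc7a11 fell, and Atf3 and Nupr1 were not called. Over all 24 genes of the list 16 fell, so genes with and without the letters fell. Whether SREBP-2 or ATF4 took part in the falls of either list was not tested. TCACNCCAC stood in 1 of the 14 cholesterol genes with a window (7.14%), against 1.44% of all promoters. A match is a description of letters and not a binding site, and a window without one says nothing about binding.

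Cholesterol synthesis genes fell without exception. All 21 measured members were called, with a median log2 fold change of -1.36. Hmgcs1, the enzyme that makes HMG-CoA, read 432 and 300.2 CPM in KO libraries, against 1249.7 and 1162 CPM in control libraries (-1.72 ± 0.17, adjusted p = 0.00085). Insig1, the sterol-sensing retention protein that is itself a target of SREBP-2, read 83.8 and 64.7 CPM in KO libraries, against 279 and 259 CPM in control libraries (-1.86 ± 0.11, adjusted p = 6.71e-06). Both genes were lower in each KO library than in either control library, and library 2 was the lower of the KO pair. Dhcr7, which makes cholesterol from 7-dehydrocholesterol, read 68 and 54.7 CPM in KO libraries, against 239 and 211 CPM in control libraries (-1.87 ± 0.10, adjusted p = 2.99e-06). Sqle, the squalene epoxidase gene, read 132 and 95.9 CPM in KO libraries, against 357 and 327 CPM in control libraries (-1.59 ± 0.14, adjusted p = 0.000255). From the first committed steps to the last, the pathway's genes thus moved one way: log2 fold changes of Mvk, Mvd, Fdps, Fdft1, Lss, Cyp51, Msmo1 and Nsdhl lay between -1.71 and -1.28. The smallest change belonged to Srebf2 itself (-0.63 ± 0.08, adjusted p = 0.000281). The fatty acid desaturase gene Scd2, no member of the list and among the 10 largest falls in CPM, read 999 and 741 CPM in KO libraries, against 2998 and 2677 CPM in control libraries (-1.70 ± 0.15, adjusted p = 0.000534).

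Of 24 genes of the integrated stress and unfolded protein response, 16 fell, 0 rose and 8 were not called, with a median of -0.78. Chac1, which degrades glutathione and is a standard ATF4 target, read 1.72 and 1.13 CPM in KO libraries, against 29.6 and 36.1 CPM in control libraries (-4.52 ± 0.26, adjusted p = 2.22e-06). Both KO libraries, close to 1 CPM, were far below both control libraries. Atf4 read 172 and 165 CPM in KO libraries, against 303 and 301 CPM in control libraries (-0.84 ± 0.05, adjusted p = 3.03e-06). The serine synthesis genes Phgdh and Psat1 fell by about the same margin, Psat1 with 109.6 and 106 CPM in KO libraries, against 264 and 288 CPM in control libraries (-1.35 ± 0.06, adjusted p = 4.58e-07). Mthfd2, of mitochondrial folate metabolism, changed by -1.92 ± 0.12, the kinase-like ATF4 target Trib3 by -2.02 ± 0.14, and the cystine transporter gene Slc7a11 by -2.87 ± 0.21. Chaperones of the endoplasmic reticulum in the same list stood apart from these amino acid genes. Hspa5, the chief of them, read 815 and 689.8 CPM in KO libraries, against 877 and 797 CPM in control libraries (-0.15 ± 0.08, adjusted p = 0.156), with overlapping groups, and Hsp90b1, Calr and Dnajb9 were not called.

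Genes of epithelial junctions and simple epithelial keratins rose: 25 of 27 rose, 0 fell and 2 were not called, with a median of 1.61. E-cadherin, encoded by Cdh1 and the adhesion protein of epithelia, read 414 and 576 CPM in KO libraries, against 78.4 and 92.4 CPM in control libraries (2.53 ± 0.17, adjusted p = 0.0002). The tight junction gene Cldn4 read 97.4 and 127 CPM in KO libraries, against 9.42 and 13.7 CPM in control libraries (3.28 ± 0.20, adjusted p = 2.65e-05). Stratifin, encoded by Sfn, read 47.3 and 61.9 CPM in KO libraries, against 1.88 and 2.78 CPM in control libraries (4.54 ± 0.21, adjusted p = 9.63e-07). In all of these genes both KO libraries exceeded both control libraries several times over, with library 2 above library 1. Keratin gene Krt19 was level between replicates, with 133 and 133 CPM in KO libraries, against 25.4 and 27 CPM in control libraries (2.34 ± 0.08, adjusted p = 9.47e-08). The splicing regulators of epithelia Esrp1 and Esrp2, and the transcription factors Grhl2, Ovol2 and Elf3, rose by 1.60 to 2.52 on the log2 scale. The call of Esrp1 was lost without control library 1 (adjusted p = 0.0529), and that of Grhl2 without control library 2 (adjusted p = 0.0524). Of the members not called, Dsp, the desmosomal plakin gene, read 358 and 272 CPM in KO libraries, against 267 and 220.1 CPM in control libraries.

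Basement membrane components as a list showed no shift: 7 of 18 rose, 3 fell and 8 were not called (median 0.01, and 4 rises without control library 1, 9 falls without KO library 1, 7 falls without KO library 2 and 6 falls by DESeq2). Laminin chain gene Lama5 rose (1.06 ± 0.08, adjusted p = 1.98e-05) together with the integrins that bind laminin, Itga6 (1.53 ± 0.12, adjusted p = 3.37e-05) and Itgb4 (2.91 ± 0.26, adjusted p = 3.56e-05). Itgb4, part of the hemidesmosome, read 16.5 and 14.9 CPM in KO libraries, against 1.49 and 2.68 CPM in control libraries. By contrast Lama2 and Lamb2, chains found in mesenchymal and muscle basement membranes, fell (-2.68 ± 0.45 and -0.95 ± 0.11).

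The mesenchymal side moved less evenly. In the list of genes that switch cells from epithelium to mesenchyme, 2 of 18 rose, 6 fell and 10 were not called (4 rises without KO library 2 and 14 falls without KO library 1). Snai2, a repressor of E-cadherin, read 25.2 and 11 CPM in KO libraries, against 115 and 101 CPM in control libraries (-2.58 ± 0.34, adjusted p = 0.00207). Tgfb2, a ligand that drives the switch in the heart, read 31.9 and 26.9 CPM in KO libraries, against 189.7 and 173 CPM in control libraries (-2.63 ± 0.12, adjusted p = 4.79e-07). Both were far lower in either KO library than in control. The mesenchymal filament gene Vim, on the other hand, read 1216 and 632 CPM in KO libraries, against 1015 and 999.8 CPM in control libraries: 1 KO library lay above and the other below both control libraries, and no difference was called (adjusted p = 0.779). Snai1, Zeb1, Zeb2 and Twist1 were not called either.

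Matrix genes were lower in part. Of 23 collagen chains measured, 11 fell, 0 rose and 12 were not called (median -1.14, and 5 rises without KO library 2). Fibrillar chains Col3a1 and Col5a2 changed by -2.73 ± 0.72 and -3.14 ± 0.34, and the basement membrane pair Col4a5 and Col4a6 by -1.85 ± 0.18 and -2.22 ± 0.22. Col3a1 lost its call without either control library (adjusted p = 0.131 and 0.0906). The abundant Col4a1 read 1099 and 670.4 CPM in KO libraries, against 626 and 598 CPM in control libraries, and was not called. For lysyl oxidases, proteoglycans and matricellular proteins, 4 of 24 rose, 11 fell and 9 were not called (7 rises without KO library 2). Spon1, a secreted adhesion protein gene, read 12.2 and 10.6 CPM in KO libraries, against 63.1 and 50 CPM in control libraries (-2.31 ± 0.15, adjusted p = 3.84e-06). Periostin, encoded by Postn and made by valve and fibrous mesenchyme, read 20.1 and 4.97 CPM in KO libraries, against 144 and 136 CPM in control libraries (-3.49 ± 0.56, adjusted p = 0.00764), and Loxl1, which crosslinks elastin, 15.7 and 5.15 CPM in KO libraries, against 83.2 and 82.8 CPM in control libraries (-2.997 ± 0.42, adjusted p = 0.00314). KO library 2 was the lower of the KO pair in Postn and Loxl1. The 4 members that rose were Thbs1, Ccn1, Ccn2 and Loxl4, of which the first 3 are also known targets of YAP. In the separate YAP list 6 of 18 rose, 8 fell and 4 were not called (3 falls without control library 1, 4 falls without control library 2 or on day 5 libraries alone and 5 falls by DESeq2), so rises such as Ccn2 (2.32 ± 0.25) stood beside falls such as Tead1 (-0.81 ± 0.18), the call of Tead1 being lost without either control library (adjusted p = 0.0768 and 0.0528). Fibroblast genes, which would also mark feeder cells, summed to 4535 and 2950.0 CPM in KO libraries, against 5285 and 5081 CPM in control libraries. In that list 1 of 18 rose, 7 fell and 10 were not called (15 falls without KO library 1). The part of residual feeders in any result was not tested.

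Genes of the earliest, undifferentiated stages were higher. For pluripotency factors 20 of 24 rose, 0 fell and 4 were not called (median 2.64), and for primed epiblast genes 10 of 16 rose, 1 fell and 5 were not called (median 1.76, and 5 rises without control library 2). Esrrb, a nuclear receptor of naive stem cells, read 31.6 and 60.1 CPM in KO libraries, against 5.25 and 5.46 CPM in control libraries (3.10 ± 0.36, adjusted p = 0.00113). Pou3f1, a POU factor of the primed epiblast, read 6.23 and 8.46 CPM in KO libraries, against 0.297 and 0.497 CPM in control libraries (4.17 ± 0.31, adjusted p = 9.76e-06). Pou5f1, which encodes Oct4, read 81.9 and 164 CPM in KO libraries, against 18.4 and 20.8 CPM in control libraries (2.65 ± 0.39, adjusted p = 0.00624). In these genes KO library 2 was highest and the groups did not overlap. In the streak list 15 of 20 rose, 0 fell and 5 were not called (median 2.37). Eomes, a T-box gene of streak and definitive endoderm, read 62.8 and 119 CPM in KO libraries, against 6.94 and 12.9 CPM in control libraries (3.19 ± 0.46, adjusted p = 0.00565), and Tdgf1, the Nodal co-receptor Cripto, 44.1 and 83.5 CPM in KO libraries, against 3.96 and 7.75 CPM in control libraries (3.44 ± 0.47, adjusted p = 0.00454). Germ cell genes went the same way, with 7 rises and 0 falls among 16 genes (4 rises without control library 1 and 3 rises on day 5 libraries alone). Dppa3, a marker of primordial germ cells, read 4.51 and 10.8 CPM in KO libraries, against 0.396 and 0.199 CPM in control libraries (4.64 ± 0.58, adjusted p = 0.000251).

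Heart genes fell more often than they rose, from progenitor factors to contractile genes. Of the progenitor factors 2 of 17 rose, 10 fell and 5 were not called (median -0.90). Smyd1, a muscle methyltransferase gene, read 0.542 and 1.05 CPM in KO libraries, against 20.5 and 19.1 CPM in control libraries (-4.61 ± 0.34, adjusted p = 9.76e-06). Tbx20, a T-box gene of chamber and valve, read 79.5 and 56.6 CPM in KO libraries, against 211 and 193 CPM in control libraries (-1.57 ± 0.18, adjusted p = 0.00078). Popdc2, a membrane cAMP-binding protein gene of cardiac conduction, read 1.35 and 0.611 CPM in KO libraries, against 34.9 and 32.8 CPM in control libraries (-5.10 ± 0.31, adjusted p = 2.88e-06). Each of these was lower in both KO libraries than in control, Smyd1 and Popdc2 close to the lower end of detection. Fgf10 and Hopx, second heart field and progenitor genes, rose instead (1.52 ± 0.28 and 1.61 ± 0.34). Nkx2-5 was low in every library, with 0.451 and 0.873 CPM in KO libraries, against 1.29 and 1.49 CPM in control libraries, and was not called.

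Contractile and electrical genes showed the same mix. For sarcomere genes 4 of 20 rose, 7 fell and 9 were not called (median -0.48, and 2 rises without either control library and 4 falls without control library 1), and for cardiac calcium handling and ion channels 2 of 14 rose, 7 fell and 5 were not called (median -0.52, and 4 falls without control library 1). Hcn4, the pacemaker channel gene, read 2.62 and 4.62 CPM in KO libraries, against 19.7 and 16 CPM in control libraries (-2.30 ± 0.32, adjusted p = 0.000444). Junctophilin 2, encoded by Jph2 and tethering calcium stores to the membrane, read 5.42 and 4.97 CPM in KO libraries, against 27 and 26.4 CPM in control libraries (-2.36 ± 0.18, adjusted p = 1.14e-05). Both were several times lower in KO. The myosin genes Myl3 and Myh7 rose (3.14 ± 0.34 and 1.30 ± 0.36), at 14.2 and 20.9 CPM in KO libraries, against 2.58 and 1.39 CPM in control libraries, for Myl3, and the call of Myh7 was lost without either control library (adjusted p = 0.0938 and 0.15). Smooth muscle actin, encoded by Acta2, read 258 and 42.7 CPM in KO libraries, against 732 and 597 CPM in control libraries, and no difference was called (-2.14 ± 0.83, adjusted p = 0.108), with the KO libraries far apart.

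Markers of the epicardium and mesothelium, the lining of heart and body cavities, split: 4 of 10 rose, 5 fell and 1 was not called (2 rises without KO library 2 or either control library or by DESeq2 and 3 falls without control library 1). Those that fell included Bnc1 and Upk3b. Bnc1, a zinc finger gene of mesothelium, read 4.24 and 4.54 CPM in KO libraries, against 53.3 and 40.6 CPM in control libraries (-3.42 ± 0.21, adjusted p = 3.27e-06). Upk3b, an uroplakin gene of mesothelium, had no count in either KO library, against 6.74 and 5.76 CPM in control libraries, so with 3 counts in the KO group taken as the lower limit it was at least 46.9-fold lower. The members that rose were Krt19, Aldh1a2, Efemp1 and Sema3d, of which Krt19, a keratin of mesothelium too, also belongs to the epithelial list. Some of these calls depended on single libraries and were lost, Sema3d without KO library 2 or either control library (adjusted p = 0.0749, 0.226 and 0.11) and Efemp1 without KO library 2 or either control library (adjusted p = 0.193, 0.0724 and 0.126). The zinc finger gene Wt1, the usual epicardial marker, read 1.99 and 1.22 CPM in KO libraries, against 2.38 and 2.58 CPM in control libraries and was not called.

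Of the lists described, the one for haemoglobin production had the lowest median. Of 20 globin, haem and red cell membrane genes, 18 fell, 0 rose and 2 were not called, with a median of -3.38. Hba-x, the embryonic zeta-type alpha globin, read 18.6 and 5.67 CPM in KO libraries, against 404 and 393 CPM in control libraries (-5.04 ± 0.59, adjusted p = 0.0189). Hbb-bh1, the embryonic beta-type globin of primitive red cells, read 66.9 and 14.5 CPM in KO libraries, against 656 and 698 CPM in control libraries (-4.06 ± 0.78, adjusted p = 0.0279). The embryonic beta-type gene Hbb-y departed from the pattern with 15.1 and 3.75 CPM in KO libraries, against 12.7 and 13.1 CPM in control libraries, and was not called (adjusted p = 0.578). Calls of the embryonic globins rest on both controls: Hba-x lost its call without either control library (adjusted p = 0.0892 and 0.0869), and Hbb-bh1 without either control library (adjusted p = 0.0856 and 0.0871). KO library 1 thus held about as much Hbb-y as control while its Hba-x was far lower, and KO library 2 was lowest in all 3 globins. Hba-a1, an adult alpha globin, read 5.69 and 0.873 CPM in KO libraries, against 146 and 153 CPM in control libraries (-5.52 ± 0.53, adjusted p = 0.000953). Alas2, the first enzyme of erythroid haem synthesis, read 4.97 and 1.13 CPM in KO libraries, against 41.3 and 46.1 CPM in control libraries (-3.85 ± 0.54, adjusted p = 0.0021). Urod, a haem enzyme gene used by all cells, had a log2 fold change of only -0.21, a call lost without KO library 2 or either control library (adjusted p = 0.0805, 0.0746 and 0.165).

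Of the regulators of blood progenitors and red cells, 1 of 19 rose, 8 fell and 10 were not called (15 falls without KO library 1). The falls were centred on erythroid factors: Gfi1b, a repressor needed for red cells and platelets, read 3.16 and 1.13 CPM in KO libraries, against 21.3 and 27.5 CPM in control libraries (-3.51 ± 0.48, adjusted p = 0.000902), and the erythropoietin receptor gene Epor 7.95 and 4.1 CPM in KO libraries, against 25.7 and 34.6 CPM in control libraries (-2.32 ± 0.28, adjusted p = 0.000248). Runx1, Tal1, Lmo2 and Gata2, which act in blood and endothelial progenitors, were not called, and in each of them KO library 1 exceeded KO library 2 at least 2-fold. Runx1 read 46.1 and 19.8 CPM in KO libraries, against 23.4 and 28 CPM in control libraries and Tal1 66.5 and 17.4 CPM in KO libraries, against 84.5 and 98.1 CPM in control libraries. Of 17 listed macrophage and leukocyte genes, 6 passed the filter on low counts, 3 of these rose and 0 fell, and the defining genes Csf1r, Ptprc and Adgre1 did not pass it.

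In endothelial genes the KO libraries parted. Of 26 measured, 4 rose, 0 fell and 22 were not called, but 18 rose without KO library 2, while without KO library 1 there were 5 rises and 12 falls, and without either control library 2 rose. Cdh5, the cadherin of endothelium, read 82.3 and 18 CPM in KO libraries, against 45.9 and 27.5 CPM in control libraries, and the receptor gene Tie1 52.3 and 7.24 CPM in KO libraries, against 25 and 14.3 CPM in control libraries. In both, KO library 1 was the highest of the 4 libraries and KO library 2 the lowest. Over the list, 13 of 26 genes were at least 2-fold higher in KO library 1 than in KO library 2 (CPM + 1) and 0 the other way, with a median log2 ratio of 1.07, whereas over all genes tested 2.05% were higher in library 1 and 1.87% in library 2 by that margin. Flt1, a VEGF receptor gene, did not follow the split: it read 189.6 and 173 CPM in KO libraries, against 23.4 and 26.7 CPM in control libraries (2.85 ± 0.09, adjusted p = 5.42e-08). Sox17, shared by arterial endothelium and endoderm, rose (1.72 ± 0.33, adjusted p = 0.00667), a call lost without either control library (adjusted p = 0.0514 and 0.0506). Nfatc1, of the endocardium, rose as well (1.16 ± 0.22, adjusted p = 0.0025).

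Other lists split between the KO libraries too. Hox genes had 14 of 22 at least 2-fold higher in KO library 1 (median log2 ratio 1.14), blood regulators 9 of 19 and lateral plate mesoderm genes 9 of 18. Definitive endoderm genes had 6 of 17 higher in KO library 2 (median -0.89), and secreted Wnt inhibitors 6 of 16. Trh, the thyrotropin-releasing hormone gene, which also marks early endoderm and node, read 151 and 1245 CPM in KO libraries, against 27.4 and 48.9 CPM in control libraries, and the secreted Wnt inhibitor Sfrp1 24.5 and 127 CPM in KO libraries, against 19.6 and 19.4 CPM in control libraries. Both stood several times higher in KO library 2 than anywhere else. Shh, the ligand of notochord and gut, read 0.903 and 11.7 CPM in KO libraries, against 0.991 and 0.596 CPM in control libraries, and Otx2, of anterior epiblast and brain, 20.2 and 90 CPM in KO libraries, against 4.76 and 8.64 CPM in control libraries. Between the control libraries, only 0.52% of all genes were 2-fold apart by the same measure. Between the KO libraries, 0 of 21 cholesterol genes, 0 of 24 stress genes and 1 of 27 epithelial genes were that far apart. This description was added after the results were seen and carries no test.

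**Figure D3:**
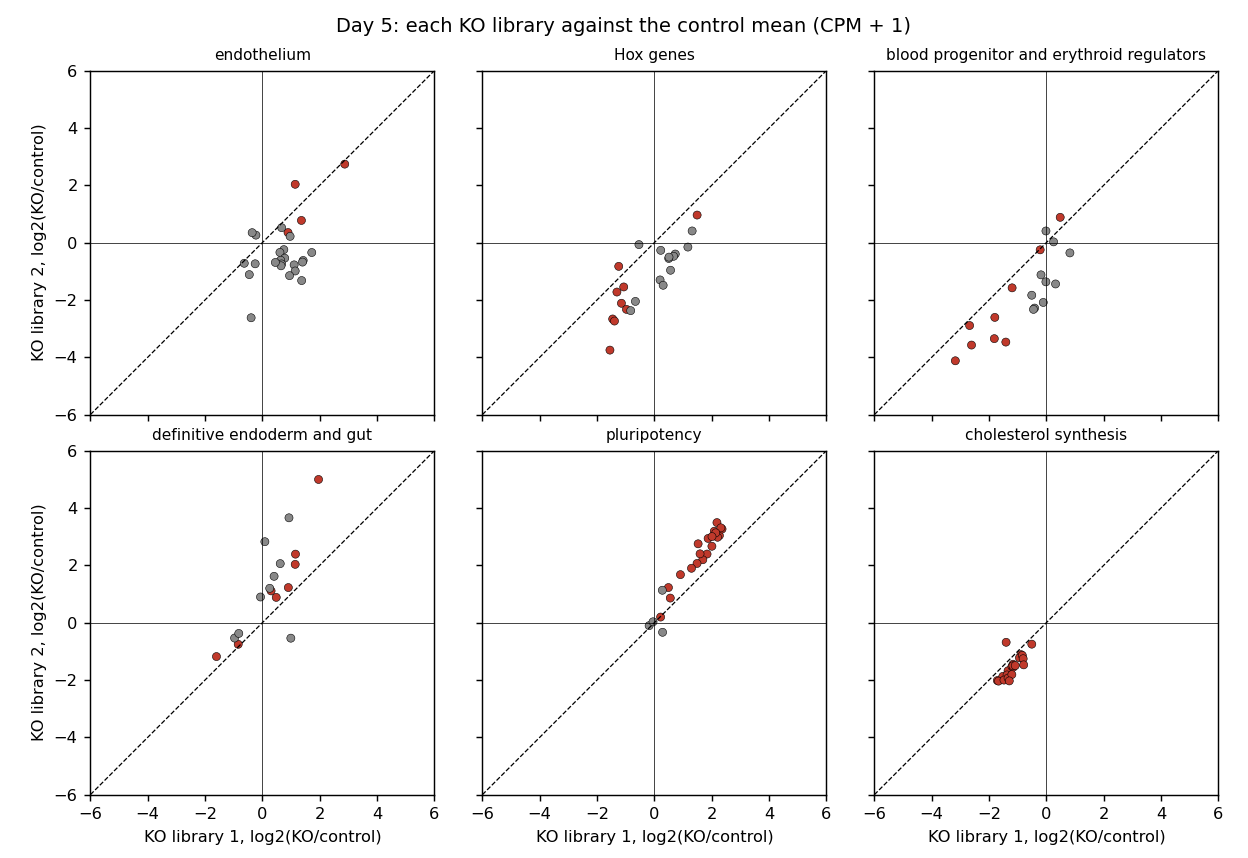
Each point is a gene of 1 of 6 lists, with the log2 ratio of KO library 1 to the control mean on the x axis and that of KO library 2 on the y axis (CPM + 1); red points were called, grey were not, and the dashed line marks equal ratios. Endothelial, Hox and blood genes lie mostly below the line, definitive endoderm and pluripotency genes above it, and cholesterol genes along it in the lower left.

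Among Hox genes, 1 of 22 rose, 8 fell and 13 were not called (median -0.51, and 4 falls without either control library and 5 falls on day 5 libraries alone). The falls were in anterior and central members, with Hoxb2 at 18.1 and 7.24 CPM in KO libraries, against 51.8 and 50.7 CPM in control libraries (-2.02 ± 0.35, adjusted p = 0.00457), while the more posterior Hoxa9 rose (2.27 ± 0.57, adjusted p = 0.0125), a call lost without either control library (adjusted p = 0.1 and 0.076).

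Visceral endoderm genes, which encode apolipoproteins and carriers secreted by the yolk sac, fell more often than they rose: 4 of 18 rose, 10 fell and 4 were not called (median -1.19, and 2 rises without control library 2). Apob, the scaffold of lipoproteins, read 4.24 and 3.05 CPM in KO libraries, against 54 and 40.4 CPM in control libraries (-3.69 ± 0.31, adjusted p = 6.25e-05). Transthyretin, the thyroid hormone carrier encoded by Ttr, read 8.04 and 7.5 CPM in KO libraries, against 85.5 and 65.9 CPM in control libraries (-3.28 ± 0.17, adjusted p = 9.89e-07). Dab2, an endocytic adaptor gene of extraembryonic endoderm, read 39.7 and 38.6 CPM in KO libraries, against 164 and 142 CPM in control libraries (-1.97 ± 0.14, adjusted p = 2.09e-05). The KO libraries matched each other closely in all 3 and lay well below control. Apoe, a lipoprotein gene that many cells express, rose (0.63 ± 0.13, adjusted p = 0.00893), a call lost without control library 2 (adjusted p = 0.0564). Its neighbour in the same gene cluster, Apoc1, rose too, with 1.54 and 2.53 CPM in KO libraries, against 0 and 0.199 CPM in control libraries, which is 2 counts over the control group, so no fold change is given. Afp, the alpha-fetoprotein gene of yolk sac and liver, was low in every library and not called, with 2.26 and 0.436 CPM in KO libraries, against 2.18 and 2.88 CPM in control libraries.

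Targets of p53, the factor that halts the cell cycle or triggers cell death, rose: 17 of 21 rose, 2 fell and 2 were not called (median 0.99). Pmaip1, which encodes the pro-apoptotic protein Noxa, read 194 and 201 CPM in KO libraries, against 4.66 and 6.36 CPM in control libraries (5.16 ± 0.10, adjusted p = 1.54e-09). Cdkn1a, the cell cycle inhibitor p21, read 205 and 180.4 CPM in KO libraries, against 48.8 and 60.9 CPM in control libraries (1.81 ± 0.10, adjusted p = 3.84e-06). Mdm2, the ligase that degrades p53, read 198 and 166 CPM in KO libraries, against 72.8 and 72.4 CPM in control libraries (1.33 ± 0.08, adjusted p = 3.84e-06). The groups did not overlap in any of them, and the replicates were close. Trp53 itself, the p53 gene, rose by less (0.69 ± 0.04, adjusted p = 3.05e-06), and the members that fell were the sestrins Sesn1 and Sesn2.

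Cell cycle genes changed by selected members and not as a block. Ccnd2, a D cyclin gene, read 68.7 and 71.2 CPM in KO libraries, against 204 and 205 CPM in control libraries (-1.55 ± 0.08, adjusted p = 9.77e-07). Its relative Ccnd1 rose (0.94 ± 0.25, adjusted p = 0.0332), a call lost without either control library (adjusted p = 0.121 and 0.13). Cdkn1c, the imprinted inhibitor p57, read 132 and 88.6 CPM in KO libraries, against 696 and 563 CPM in control libraries (-2.51 ± 0.21, adjusted p = 0.000423), so that p21 and p57 moved in opposite directions. Of the replication genes 5 of 28 rose, 6 fell and 17 were not called (3 rises without control library 1 or by DESeq2 and 10 falls without KO library 1), and of the mitosis genes 2 of 24 rose, 8 fell and 14 were not called (4 rises without KO library 2, 3 falls without control library 1 or on day 5 libraries alone and 4 falls without control library 2 or by DESeq2), with medians of 0.01 and -0.13. These shares, rises and falls together, are near the background of 43.5%. Mitosis falls alone were a larger share than the background of 21.7%, a count that moved between fits.

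FGF signalling genes rose on balance, with 15 rises and 4 falls among 23 genes (median 1.04, and 2 falls without control library 1 or by DESeq2). Ligand gene Fgf8 read 10.3 and 17.7 CPM in KO libraries, against 2.38 and 4.17 CPM in control libraries (2.10 ± 0.34, adjusted p = 0.00332), and Fgf5, of the primed epiblast, 20.7 and 78.6 CPM in KO libraries, against 1.98 and 2.88 CPM in control libraries (4.35 ± 0.94, adjusted p = 0.0212), with most of the rise in KO library 2. Fgf5 lost its call without either control library (adjusted p = 0.0987 and 0.085). Feedback genes that ERK switches on rose with them. Dusp6, the ERK phosphatase gene, read 52.6 and 61.8 CPM in KO libraries, against 25.4 and 25.5 CPM in control libraries (1.17 ± 0.08, adjusted p = 8.81e-06), and Spry4, a Sprouty inhibitor gene, 25.7 and 30.5 CPM in KO libraries, against 10.2 and 9.84 CPM in control libraries (1.49 ± 0.12, adjusted p = 1.54e-05). All 4 receptor genes fell: Fgfr3 read 30.7 and 16.9 CPM in KO libraries, against 118 and 105 CPM in control libraries (-2.23 ± 0.24, adjusted p = 0.000505), Fgfr2 changed by -1.37 ± 0.17, Fgfr4 by -1.03 ± 0.26 and Fgfr1 by -0.23 ± 0.08. The smaller of these falls depended on the controls, as Fgfr4 lost its call without control library 1 (adjusted p = 0.0802) and Fgfr1 without either control library (adjusted p = 0.15 and 0.114).

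Notch genes also rose, with 10 rises and 2 falls among 17 genes (median 0.83). Receptor gene Notch1 read 114 and 69.2 CPM in KO libraries, against 37.4 and 33.6 CPM in control libraries (1.36 ± 0.23, adjusted p = 0.00485), the ligand gene Jag2 changed by 1.76 ± 0.13 (adjusted p = 1.01e-05), and the target Hes1 read 41.8 and 41.4 CPM in KO libraries, against 22.7 and 23.9 CPM in control libraries (0.83 ± 0.09, adjusted p = 8.16e-05). Lfng, a glycosyltransferase that tunes the receptors, read 5.24 and 7.42 CPM in KO libraries, against 0.396 and 0.696 CPM in control libraries (3.51 ± 0.37, adjusted p = 8.42e-05). Ligand, receptor, modifier and target were thus each higher in both KO libraries.

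Wnt ligand genes rose more often than they fell: 7 of 14 rose, 1 fell and 6 were not called (median 1.59). Wnt10b stood at 5.6 and 9.95 CPM in KO libraries, against 0.0991 and 0.0994 CPM in control libraries, where that is 1 count each, so no fold change is given. Wnt4 read 27.3 and 17.1 CPM in KO libraries, against 2.18 and 2.98 CPM in control libraries (3.10 ± 0.31, adjusted p = 7.2e-05). Wnt2, a ligand of cardiac mesoderm and vessels, fell, with 4.51 and 5.06 CPM in KO libraries, against 22.5 and 17.6 CPM in control libraries (-2.06 ± 0.26, adjusted p = 0.000257). Receptors did not follow the ligands, since 4 of 22 rose, 7 fell and 11 were not called (7 rises without KO library 1 and 2 rises without either control library or on day 5 libraries alone), among the falls Fzd4 (-2.35 ± 0.40, adjusted p = 0.00774) and the co-receptor gene Ror1 (-1.85 ± 0.18, adjusted p = 6.91e-05). Direct targets and nuclear factors were mixed, with 10 rises and 6 falls among 25 genes (6 rises without either control library, 5 rises on day 5 libraries alone and 3 falls without control library 1). Axin2, the feedback inhibitor, read 96.3 and 63.8 CPM in KO libraries, against 50.9 and 51.1 CPM in control libraries (0.65 ± 0.19, adjusted p = 0.0316), a call lost without either control library (adjusted p = 0.131 and 0.124). Lef1, a nuclear partner of beta-catenin, read 91.1 and 44.9 CPM in KO libraries, against 66.1 and 66.7 CPM in control libraries, with the KO libraries on either side of control.

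BMP and Hedgehog genes leaned the other way. Among BMP and TGF-beta genes 5 of 28 rose, 11 fell and 12 were not called (10 rises without KO library 2, 1 rise without control library 1, 3 rises by DESeq2 or with no filter or on day 5 libraries alone, 5 falls without control library 1, 6 falls without control library 2 or on day 5 libraries alone and 7 falls with no filter), and in the Hedgehog list 2 of 13 rose, 6 fell and 5 were not called (4 rises without KO library 1 and 10 falls without KO library 2). Ligand gene Bmp5 read 51.2 and 59.6 CPM in KO libraries, against 198 and 183 CPM in control libraries (-1.78 ± 0.13, adjusted p = 2.35e-05). Msx1, a homeobox gene that BMP induces, read 80.5 and 68.7 CPM in KO libraries, against 198 and 189 CPM in control libraries (-1.38 ± 0.09, adjusted p = 4.1e-06). Of the Hedgehog pathway, Gli2, its main activator, changed by -1.73 ± 0.28 (adjusted p = 0.0041) and the co-receptor gene Boc by -1.60 ± 0.20 (adjusted p = 0.00029). The target Gli1 read 4.61 and 23.3 CPM in KO libraries, against 11.9 and 9.24 CPM in control libraries, with the KO libraries again on either side of control.

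Imprinted genes, which are expressed from the copy inherited from 1 parent, fell in most cases: 5 of 29 rose, 17 fell and 7 were not called (median -0.91). The exceptions were large. Grb10, an adaptor that restrains insulin and IGF receptors, read 936 and 774 CPM in KO libraries, against 31.9 and 31.8 CPM in control libraries (4.75 ± 0.10, adjusted p = 1.21e-08). Igf2r, the receptor that clears IGF2, read 967 and 446 CPM in KO libraries, against 73.3 and 71.7 CPM in control libraries (3.28 ± 0.41, adjusted p = 0.00389). Mest, a hydrolase gene of mesoderm, read 1289 and 459.6 CPM in KO libraries, against 4677 and 4192 CPM in control libraries (-2.34 ± 0.52, adjusted p = 0.0248), and Peg3, a zinc finger gene, 1530.3 and 1113 CPM in KO libraries, against 5011 and 4638 CPM in control libraries (-1.87 ± 0.16, adjusted p = 0.00056). Mest lost its call without either control library (adjusted p = 0.0802 and 0.0672). Mest and Peg3 had the 2 largest falls in CPM among genes named by rule. Dlk1, a Notch-like surface protein gene of embryonic mesenchyme, fell too (-2.71 ± 0.41, adjusted p = 0.00587). The growth factor gene Igf2, read 5625 and 2678 CPM in KO libraries, against 8183 and 7437 CPM in control libraries and was not called (adjusted p = 0.118).

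In glycolysis, the pathway with which Foxk1 is associated, 15 of 29 rose, 8 fell and 6 were not called (median 0.42, and 5 falls without control library 2 or on day 5 libraries alone). Ldha, which makes lactate, read 1035 and 1193 CPM in KO libraries, against 442 and 549 CPM in control libraries (1.17 ± 0.11, adjusted p = 0.000341), and Pkm, the pyruvate kinase gene, 2318 and 2413 CPM in KO libraries, against 1268 and 1442 CPM in control libraries (0.80 ± 0.05, adjusted p = 1.01e-05). Both rose in each KO library, as did Aldoa, Tpi1, Pgk1 and Pgam1 by 0.38 to 0.52 on the log2 scale, Aldoa losing its call without KO library 2 (adjusted p = 0.0714). Glucose transporter genes went opposite ways: Slc2a1 fell, with 1226 and 864 CPM in KO libraries, against 2507 and 2191 CPM in control libraries (-1.17 ± 0.17, adjusted p = 0.00467), while Slc2a3 rose, with 2096 and 2522 CPM in KO libraries, against 1442 and 1365 CPM in control libraries (0.72 ± 0.09, adjusted p = 0.000965). Pfkfb4, which sets the level of a glycolytic activator and responds to hypoxia, read 7.49 and 4.54 CPM in KO libraries, against 32.5 and 30.9 CPM in control libraries (-2.40 ± 0.21, adjusted p = 2.88e-05). Hypoxia genes as a list showed no one direction, with 5 rises and 8 falls among 23 genes (2 rises without control library 1 and 3 rises by DESeq2 or on day 5 libraries alone).

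Autophagy and lysosome genes, which Foxk proteins are known to repress, rose more often than they fell, with 15 rises and 4 falls among 28 genes but a median of only 0.20. Ctsd, the lysosomal protease cathepsin D, read 710.0 and 648 CPM in KO libraries, against 407 and 385 CPM in control libraries (0.78 ± 0.06, adjusted p = 8.08e-06), Sqstm1, the cargo receptor p62, changed by 0.57 ± 0.05 (adjusted p = 3.34e-05), and Lamp2, a lysosomal membrane protein gene, fell by contrast (-0.68 ± 0.07, adjusted p = 7.13e-05). Nuclear genes of the respiratory chain moved little, with 5 rises and 4 falls among 36 genes (2 falls without control library 1, 0 falls without control library 2 or by DESeq2 and 1 fall on day 5 libraries alone), below the background. The 13 messenger RNAs of the mitochondrial genome gave 0 calls with edgeR and 1 at an unadjusted p below 0.05, with 1 fall by DESeq2 and 12 falls with edgeR without KO library 1. mt-Co1, an oxidase subunit, read 16155 and 9378 CPM in KO libraries, against 16054 and 20148 CPM in control libraries, with KO library 1 near control and KO library 2 lower, and all 13 were lower in KO library 2 than in KO library 1. Ribosomal protein genes gave 13 rises and 47 falls among 75 genes, but the median was -0.17, and of the 13 that rose, Rpl29, Rplp0, Rpl3 and Rps2 are among the genes with near-identical copies.

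Antigen presentation and interferon-stimulated genes were higher. In the antigen list 11 of 13 rose, 1 fell and 1 was not called (median 1.47), and in the interferon list 10 of 15 rose, 2 fell and 3 were not called (median 1.55). Tap1, the peptide transporter that loads class I molecules, read 26.9 and 30.4 CPM in KO libraries, against 5.75 and 7.35 CPM in control libraries (2.13 ± 0.15, adjusted p = 6.98e-06). Mx1, an antiviral GTPase gene, read 60.9 and 69.7 CPM in KO libraries, against 1.39 and 0.696 CPM in control libraries (5.95 ± 0.21, adjusted p = 1.17e-07). Yet Stat2 and Ifit2, a transducer and a classical target of interferon, fell, Ifit2 with 1.9 and 1.66 CPM in KO libraries, against 18.1 and 12 CPM in control libraries (-3.08 ± 0.30, adjusted p = 5.07e-05). The list therefore did not move as a single response.

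Neural genes rose more often than they fell. Of the neural progenitor genes 11 of 19 rose, 2 fell and 6 were not called (median 2.27), and of the neuronal genes 11 of 23 rose, 3 fell and 9 were not called (median 1.41, and 7 rises without control library 2 or on day 5 libraries alone). Nes, an intermediate filament gene of progenitors, read 75.1 and 58.9 CPM in KO libraries, against 19.6 and 14.3 CPM in control libraries (1.98 ± 0.16, adjusted p = 0.000102). Neurofilament gene Nefl read 19.6 and 22.1 CPM in KO libraries, against 2.28 and 2.19 CPM in control libraries (3.22 ± 0.13, adjusted p = 2.91e-07). Olig2, of motor neuron and oligodendrocyte precursors, stood at 3.25 and 4.8 CPM in KO libraries, against 0.0991 and 0 CPM in control libraries. Pax6 and Sox1, the usual markers of neural plate, were below 1 CPM in every library, and the neuronal markers Dcx and Rbfox3 likewise.

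Guidance genes gave changes in both directions, with 13 rises and 12 falls among 36 genes (7 rises without control library 1). Epha2, an ephrin receptor gene of epithelium, read 67.5 and 81.8 CPM in KO libraries, against 11.8 and 13.1 CPM in control libraries (2.58 ± 0.11, adjusted p = 4.37e-07), and the repellent gene Slit2 25.1 and 34.6 CPM in KO libraries, against 235 and 199 CPM in control libraries (-2.86 ± 0.17, adjusted p = 2.89e-05). Among growth factor genes 14 of 34 rose, 9 fell and 11 were not called (15 falls without KO library 2). Lif, the cytokine that keeps stem cells undifferentiated, read 11.8 and 11.4 CPM in KO libraries, against 0.0991 and 0.497 CPM in control libraries (5.24 ± 0.38, adjusted p = 9.25e-06), and its receptor gene Lifr rose too (1.11 ± 0.12, adjusted p = 9.86e-05). Cxcl12 and Ackr3, ligand and scavenging receptor of the same chemokine axis, fell (-2.77 ± 0.41 and -2.30 ± 0.15). Cxcr4, the other receptor gene of that axis in the list, rose instead. It read 34.8 and 43.6 CPM in KO libraries, against 15.8 and 20.5 CPM in control libraries (1.11 ± 0.16, adjusted p = 0.00053).

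**Figure D4:**
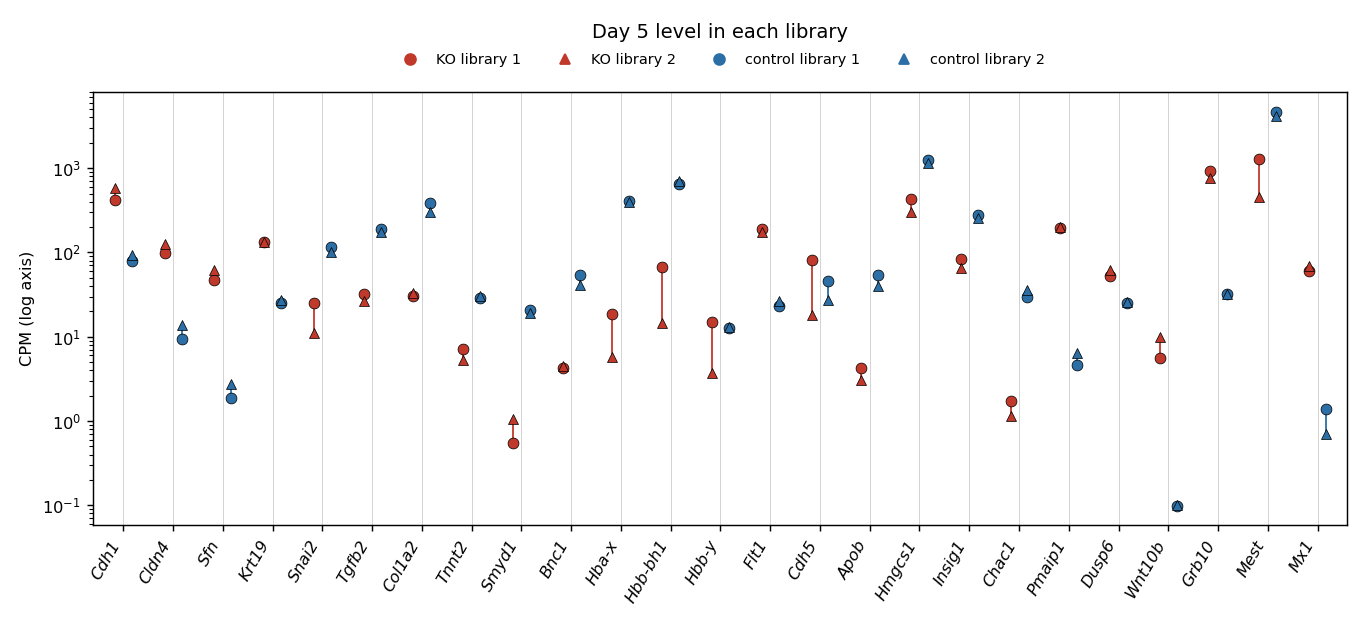
CPM of selected genes in each day 5 library on a log axis, KO at left (red) and control at right (blue) of each pair, circles for library 1 and triangles for library 2. For most genes both KO points lie on 1 side of both control points, and for Hbb-y and Cdh5 they lie on either side.

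The largest log2 rises by the naming rule included, beside genes already described, Vgf, a neuropeptide precursor gene, with 17.9 and 23.8 CPM in KO libraries, against 0.198 and 0.298 CPM in control libraries (6.33 ± 0.39, adjusted p = 3.55e-06), and Spp1, the matrix phosphoprotein osteopontin, with 57.3 and 61.1 CPM in KO libraries, against 0.793 and 2.29 CPM in control libraries (5.26 ± 0.24, adjusted p = 1.25e-06). The ciliary gene Cfap53 and the vomeronasal receptor gene Vmn1r88 were low in control libraries, Vmn1r88 with 58 and 60 CPM in KO libraries, against 1.09 and 1.09 CPM in control libraries. Slc4a11, a membrane transporter gene, read 30.4 and 35.8 CPM in KO libraries, against 0.694 and 1.29 CPM in control libraries (5.04 ± 0.23, adjusted p = 5.25e-07). Tph1, the enzyme of serotonin synthesis outside the brain, read 8.49 and 39.5 CPM in KO libraries, against 0.396 and 0.596 CPM in control libraries (5.57 ± 1.03, adjusted p = 0.00802), with most of it in KO library 2 and no call without either control library (adjusted p = 0.0631 and 0.055). Among the largest falls, Npbwr1, a neuropeptide receptor gene, stood at 0.0903 and 0.0873 CPM in KO libraries, which is 1 count each, against 14.1 and 9.64 CPM in control libraries. Mab21l2, a developmental gene of eye and body wall, read 0.361 and 0.785 CPM in KO libraries, against 22.1 and 16.7 CPM in control libraries (-5.05 ± 0.33, adjusted p = 5.09e-06), Mylk3, the cardiac myosin light chain kinase, 0.181 and 0.611 CPM in KO libraries, against 11.9 and 12.1 CPM in control libraries (-4.87 ± 0.52, adjusted p = 9.92e-05), and Nr1h5, a nuclear receptor gene, 1.99 and 0.785 CPM in KO libraries, against 39.1 and 31.3 CPM in control libraries (-4.66 ± 0.35, adjusted p = 3.87e-05). The largest falls in CPM held, beside those given above, the elongation factor gene Eef1a1 (-0.27 ± 0.02, adjusted p = 3.4e-05) and the collagen chaperone gene Serpinh1 (-0.83 ± 0.13, adjusted p = 0.00441). Eno1b and Hmga1b, also among those 10 falls, are intronless copies of Eno1 and Hmga1.

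How far day 5 stands apart from day 3 was tested as the difference between the KO effects of the days in the same model, where KO effect means the log2 difference between KO and control libraries. It was called for 3496 genes (24.2%), higher at day 5 for 1932 (13.4%) and lower for 1564 (10.8%). Of 2812 genes called on both days, 338 rose at day 5 but fell at day 3, and 295 fell at day 5 but rose at day 3, with the difference itself called. In the streak list, 13 genes rose at day 5 but fell at day 3, and the difference was called higher for all 20 members. Of the stress response genes, 9 fell at day 5 but rose at day 3, and 20 of 24 had a lower KO effect at day 5. Chac1 had a KO effect of -4.52 at day 5 and 1.09 at day 3, a difference of -5.61 (adjusted p = 1.15e-05), and Atf4 one of -0.84 at day 5 and 0.44 at day 3 (adjusted p of the difference = 5.48e-06). For cholesterol synthesis the difference was called lower in 18 of 21 genes and higher in 0, and the median KO effect was -1.36 at day 5 and -0.25 at day 3. Dhcr7 changed sign, with -1.87 at day 5 and 0.36 at day 3 (adjusted p of the difference = 2.07e-05).

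Higher KO effects at day 5 were common in other lists. FGF genes had a higher KO effect in 14 of 23 and a lower one in 3, with Dusp6 at 1.17 at day 5 and -1.35 at day 3 (adjusted p of the difference = 1.29e-06). Epithelial genes had one in 13 of 27 and a lower one in 0, with Krt19 at 2.34 at day 5 and -0.06 at day 3 (adjusted p of the difference = 3.16e-06). The vascular gene Flt1 had 2.85 at day 5 and -0.43 at day 3 (adjusted p of the difference = 1.2e-06). By contrast the difference was called for 0 of 5 Y-linked genes, although for a member with no control count at day 5 it could not be estimated. Rplp0, Rpl29, Mx1 and Vmn1r88 had nearly equal KO effects on both days, with Rplp0 at 3.45 at day 5 and 3.40 at day 3. Of 20 globin, haem and red cell membrane genes, 7 had a lower KO effect at day 5 and 0 a higher one. Slc25a37, which imports iron into mitochondria for haem synthesis, had -1.77 at day 5 and 0.31 at day 3 (adjusted p of the difference = 5.71e-06). Hba-x had no count at day 3, with a mean of 0 CPM in KO and 0 CPM in control libraries. Its difference between the days therefore could not be called, and the count of 7 says nothing on genes without day 3 counts. Of 19 regulators of blood progenitors and red cells, 3 had a higher KO effect at day 5 and 5 a lower one.

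**Figure D5:**
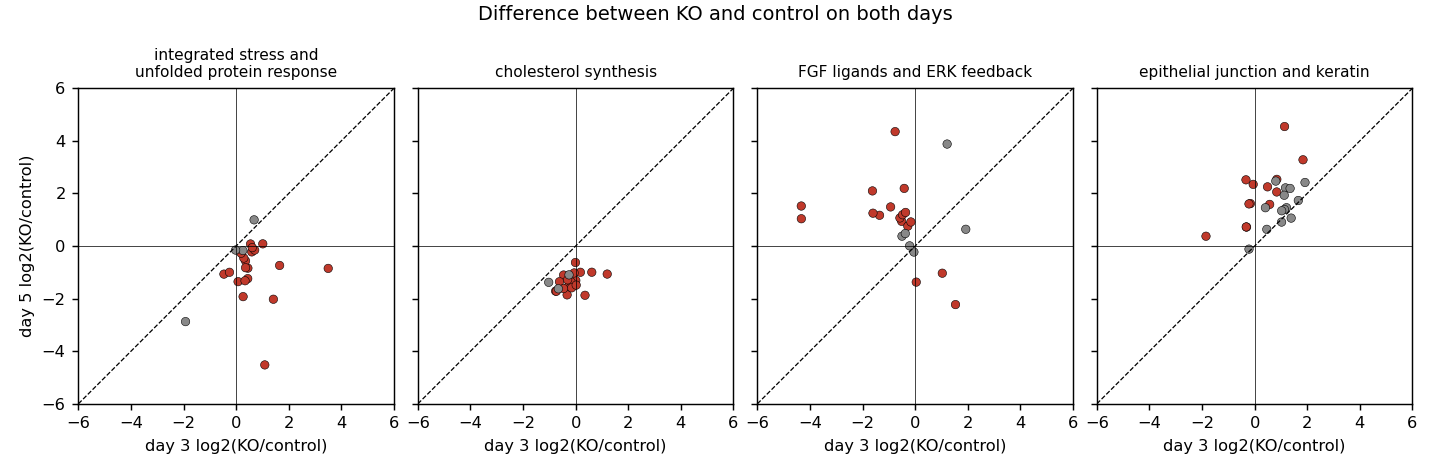
Log2 fold change of KO over control at day 3 (x axis) and day 5 (y axis) for the genes of 4 lists; red points have a difference between the days that was called, grey do not, and the dashed line marks equal values. Stress and cholesterol genes lie below the line, FGF and epithelial genes mostly above it.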

How the data were processed

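RNA of embryoid bodies was read as poly-A selected paired-end libraries, per the labels' protocols. The deposited table holds estimated counts per gene (kallisto 0.46.2 and mouse build mm10, per the submitters' processing notes), which were rounded to whole numbers. All 36047 gene IDs matched GENCODE vM21. The sources used here do not say whether counting used strand. Genes were filtered with filterByExpr, scaled by TMM and fitted by edgeR 4.0.16 (R 4.3.3, robust quasi-likelihood F-test) on the 8 day 3 and day 5 libraries, with Benjamini-Hochberg adjustment over 14430 genes and a threshold of 0.05. The SE is that implied by the F statistic. Alternatives were DESeq2 1.42.0, RLE scaling, other filters, protein-coding genes alone, day 5 alone, a replicate block and leaving out each library. The day 10 table is not used here.

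Members, gene lists and tests were chosen with earlier results of these data known. Genes named are Foxk1, Foxk2, list members (those of smallest p first), and among called, separated genes of at least 5 CPM on average the 12 largest rises and falls by log2 fold change and the 10 by CPM, passing over predicted genes and pseudogenes. The 6 largest differences between days in either direction came from genes whose difference was called, with 5 CPM on average over both days, called at day 5 or not. A few of these genes are left out of the text. Some list members were picked to show a contrast within their list after their values were seen. Copies were assigned to parents by blastn 2.17.0 at 95% identity over 80% of their length. Where a group had no count, 3 counts in that group were taken as its limit, which covers counting error only. The fit was tested on simulated data, of which no result is given here.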

Additional observations from a re-analysis of the deposited data

Results flagged for a closer look

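The KO effect differed between day 5 and day 3 for 3496 genes by the test of the difference itself, and for 150 of 243 genes named here, Cxcr4 not counted. Largest in the positive direction were genes of streak, mesoderm and axis that had been lower in KO libraries at day 3. Mixl1, a streak homeobox gene, read 18.6 and 14.4 CPM in KO libraries, against 1.29 and 1.99 CPM in control libraries at day 5, and averaged 10.1 CPM in KO and 421 CPM in control libraries at day 3 (adjusted p of the difference = 1.16e-07). Lhx1, of node and head organizer, read 42.6 and 125 CPM in KO libraries, against 11.9 and 19.7 CPM in control libraries at day 5, and averaged 1.73 CPM in KO and 327 CPM in control libraries at day 3 (adjusted p of the difference = 0.00434). For Mesp1, the early cardiac mesoderm factor, not called at day 5, the day 3 means were 0.131 CPM in KO and 76.5 CPM in control libraries (adjusted p of the difference = 0.00666), and for Cyp26a1, which degrades retinoic acid, 1.42 CPM in KO and 126 CPM in control libraries (0.00764). Six2, a renal progenitor factor, averaged 0.3 CPM in KO and 22.1 CPM in control libraries at day 3 (1.29e-06). Cer1, a secreted Nodal and BMP inhibitor gene, averaged 0 CPM in KO and 25.4 CPM in control libraries at day 3, and read 3.07 and 26 CPM in KO libraries, against 0.595 and 1.69 CPM in control libraries at day 5 (0.0485).

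Of the largest negative differences, those of Smyd1, Popdc2 and Cited4 were in genes below 1 CPM at day 3, and the adjusted p of the difference is given for each. Chac1 had 1.15e-05, Smyd1 0.00394 and Popdc2 0.0124, with day 5 values as reported above. Cited4, a transcriptional coactivator gene, read 3.34 and 1.05 CPM in KO libraries, against 26.7 and 26.7 CPM in control libraries at day 5 (0.00629). Pakap, a gene read through a paralemmin and an A-kinase anchor gene, read 12.3 and 7.77 CPM in KO libraries, against 22.7 and 8.84 CPM in control libraries at day 5 (0.029), and is annotated across genes with symbols of their own, so its counts are uncertain.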

How the results depend on the processing

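The day 5 count of 6281 genes was 6127 with the replicate block, 6291 with RLE scaling, 6225 with no filter, 6274 with a stricter filter, 6176 on protein-coding genes alone, 4358 by DESeq2 and 4354 when day 5 libraries were fitted alone. Leaving out a library gave 4030 (without control library 1) to 7565 genes (without KO library 1), where the group left with 1 library is assumed to vary like the others. The count of 3496 genes whose KO effect differed between days was 3370 with the replicate block, 2317 by DESeq2 and 2049 to 5621 on leaving out a library. Same-numbered libraries did not deviate together (correlations of -0.022 to 0.05), so the numbers are taken as names. Of 243 genes named, Cxcr4 not counted, 204 were called. Of the called genes, 23 lost the call without control library 1, 23 without control library 2, 5 without KO library 2, 2 without KO library 1, 14 on day 5 libraries alone (Axin2, Ccnd1, Col3a1, Cyp26a1, Dnmt3b, Efemp1, Fgfr1, Fos, Lhx1, Mest, Tagln, Tead1, Trh and Urod), 9 with no filter (Axin2, Ccnd1, Col3a1, Cyp26a1, Dnmt3b, Fos, Lhx1, Tagln and Trh), 6 by DESeq2 (Efemp1, Fgfr1, Fgfr4, Hoxa9, Sema3d and Urod) and 0 under RLE scaling, the stricter filter or protein-coding genes alone, and 0 reversed. Under the replicate block 3 lost it: Axin2 (adjusted p = 0.0516), Hba-x (0.0679) and Trh (0.0759), and falls in the basement membrane list numbered 5 in place of 3. On leaving out single libraries, the log2 fold change turned sign only in genes not called, with these lowest and highest values: Atf3 (-0.06 to 0.24), Cdh5 (-1.03 to 1.15), Cdx2 (-0.57 to 1), Dcx (-0.91 to 0.32), Dnajb9 (-0.41 to 0.06), Gata2 (-1.54 to 0.32), Gli1 (-1.21 to 1.14), Hbb-y (-1.78 to 0.21), Hsp90b1 (-0.17 to 0.03), Lef1 (-0.57 to 0.45), Mesp1 (-0.45 to 2.61), Pakap (-1.18 to 0.18), Rbfox3 (-1.14 to 0.62), Runx1 (-0.38 to 0.83), Sox1 (-0.13 to 5.03), Tie1 (-1.44 to 1.4), Vim (-0.68 to 0.26), Zeb1 (-0.88 to 0) and Zeb2 (-0.84 to 0.01). With the replicate block Lef1 had 0. The cause was not tested. List counts under 4 also moved on leaving out a library. List counts in the text name the library, tool or filter where it moved a count of 4 or more by over 1.5 times.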

Other observations

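Some further gene groups, described in the same way, had changes of their own. Immediate early and heat shock genes gave 10 rises and 2 falls among 18 genes. Egr3, a zinc finger gene that ERK switches on, read 9.03 and 12.1 CPM in KO libraries, against 0.892 and 0.596 CPM in control libraries (3.81 ± 0.44, adjusted p = 0.000153), and Junb, an AP-1 subunit gene, 58.2 and 62.3 CPM in KO libraries, against 17.3 and 14.5 CPM in control libraries (1.92 ± 0.12, adjusted p = 3.03e-06). Their partners Fos and Fosb, also AP-1 subunit genes, fell (-1.21 ± 0.29 and -1.99 ± 0.33), so the early response did not move in 1 direction. Fos lost its call without either KO library (adjusted p = 0.136 and 0.0889), and Fosb without KO library 1 (adjusted p = 0.0524). Hspb1, a small heat shock protein gene, read 63.2 and 66.1 CPM in KO libraries, against 12.1 and 13.4 CPM in control libraries (2.34 ± 0.09, adjusted p = 2.17e-07). For the BAF chromatin remodelling complex 1 of 25 rose, 10 fell and 14 were not called (5 falls without control library 1 or by DESeq2 and 6 falls on day 5 libraries alone). Its largest falls were in Smarcd3 (14.8 and 17.2 CPM in KO libraries, against 73.6 and 82.3 CPM in control libraries, -2.28 ± 0.11, adjusted p = 8.39e-07) and Dpf3 (7.4 and 6.46 CPM in KO libraries, against 40.1 and 42.1 CPM in control libraries, -2.57 ± 0.21, adjusted p = 1.84e-05), the subunits known from heart and muscle. The next fall in size was in Phf10, a subunit gene shared by many tissues (-0.62 ± 0.07, adjusted p = 9.43e-05). In DNA methylation and Polycomb genes, 6 of 25 rose, 8 fell and 11 were not called (4 falls without control library 1 or by DESeq2, 5 falls without control library 2 and 3 falls on day 5 libraries alone). The de novo methyltransferase genes went opposite ways: Dnmt3b read 241 and 461 CPM in KO libraries, against 139 and 141 CPM in control libraries (1.32 ± 0.32, adjusted p = 0.0291), and Dnmt3a 103 and 89.6 CPM in KO libraries, against 173 and 165 CPM in control libraries (-0.81 ± 0.07, adjusted p = 1.98e-05). Dnmt3b lost its call without either control library (adjusted p = 0.113 and 0.106). Dnmt3l, their germline cofactor, read 15.4 and 33 CPM in KO libraries, against 1.88 and 0.994 CPM in control libraries (4.06 ± 0.52, adjusted p = 0.0018).

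Ribosome biogenesis genes rose by small amounts, with 15 rises and 0 falls among 24 genes (9 rises without control library 1 and 8 rises by DESeq2) and a median of 0.18. Dkc1, the pseudouridine synthase of small nucleolar particles, read 142 and 135 CPM in KO libraries, against 96.8 and 103 CPM in control libraries (0.48 ± 0.05, adjusted p = 0.000149). Retinoic acid genes had 4 rises and 4 falls among 18 genes (7 rises without KO library 1). Aldh1a3, an enzyme that makes the ligand, read 5.78 and 4.97 CPM in KO libraries, against 0.297 and 0.199 CPM in control libraries (4.38 ± 0.46, adjusted p = 8.58e-05). Trophoblast genes had 5 rises and 1 fall among 13 genes, with Plet1, a surface protein gene of early trophoblast and epithelial progenitors, at 17.3 and 20.1 CPM in KO libraries, against 1.19 and 1.59 CPM in control libraries (3.74 ± 0.27, adjusted p = 9.59e-06). Of the genes that define trophoblast stem cells, Elf5 did not pass the filter on low counts and Cdx2 was not called. Eomes, which is in this list and in the streak list, rose as given above. In smooth muscle genes 4 of 16 rose, 6 fell and 6 were not called (10 falls without KO library 1, 2 falls without control library 1 and 3 falls on day 5 libraries alone). Tagln, the transgelin gene, rose (1.44 ± 0.34, adjusted p = 0.0241), a call lost without either control library (adjusted p = 0.0989 and 0.106), while Synpo2, a Z-disc gene, fell (-3.47 ± 0.28, adjusted p = 1.6e-05).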
